A study of Mus musculus with 6 samples.

Results

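The Myc, Max and Mxd network was followed here as 10 genes in hepatocytes of regenerating mouse liver. The genes were chosen by name, from the GENCODE M21 annotation, and are Myc, Mycn, Mycl, Max, Mxd1, Mxd3, Mxd4, Mxi1, Mnt and Mlx, 10 of the 55450 genes in the count files. All 10 had enough reads to be tested. Bulk RNA-Seq libraries came from primary hepatocytes of male mice on normal diet, 10 to 12 weeks old and C57BL/6 by the labels (C57BL/6J in the study's methods), isolated by 2-step collagenase perfusion. There were 3 libraries at 0 h, which the paper describes as undamaged liver, and 3 at 48 h after partial hepatectomy (PHx), the removal of most of the liver mass. The 3 libraries of a time point came from separate preparations of different mice, and the labels name no sham operation.

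Myc is a transcription factor of the basic helix-loop-helix leucine zipper family that drives growth and division. It binds DNA as a pair with Max, mostly at the E-box CACGTG, and recruits coactivators, whereas the Mxd proteins (Mxd1, Mxd3, Mxd4 and Mxi1) and Mnt pair with the same Max, bind the same E-box and recruit the Sin3 and histone deacetylase corepressor. Mlx is a second hub that pairs with the glucose-sensing factors ChREBP (Mlxipl) and MondoA (Mlxip), and also with Mxd1, Mxd4 and Mnt. In liver, Myc is known as an early response gene of regeneration, Mxd1 and Mxd4 as genes of resting or differentiating cells, and Mxd3 as a gene of dividing cells.

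The E-box itself stood in the promoters of several of these genes. The window searched ran from 250 bases before to 50 after the start of the gene in RefSeq (GRCm38.p6), and the motif, CACGTG, reads the same on both strands. Of the 9 network genes with a window, 4 held it (Max, Mlx, Mnt and Mxd4), against 11.3% of the 10954 tested genes with a window. Among all tested genes it was found in 11.4% of those called higher and 11.1% of those called lower at 48 h. The promoters of the 3 genes that hold the motif and changed at 48 h are shown, with the E-box in capitals, because they carry the letters that the network's own proteins bind. They lie at chr12:76962199-76962498 (minus strand) for Max, chr11:101087040-101087339 (plus strand) for Mlx and chr5:34187661-34187960 (minus strand) for Mxd4.
Max: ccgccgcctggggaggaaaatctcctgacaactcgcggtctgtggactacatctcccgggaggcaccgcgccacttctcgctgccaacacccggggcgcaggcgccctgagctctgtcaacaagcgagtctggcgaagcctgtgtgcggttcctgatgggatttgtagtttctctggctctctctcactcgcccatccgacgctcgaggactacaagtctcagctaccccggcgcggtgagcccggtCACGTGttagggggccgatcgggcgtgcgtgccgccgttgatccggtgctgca
Mlx: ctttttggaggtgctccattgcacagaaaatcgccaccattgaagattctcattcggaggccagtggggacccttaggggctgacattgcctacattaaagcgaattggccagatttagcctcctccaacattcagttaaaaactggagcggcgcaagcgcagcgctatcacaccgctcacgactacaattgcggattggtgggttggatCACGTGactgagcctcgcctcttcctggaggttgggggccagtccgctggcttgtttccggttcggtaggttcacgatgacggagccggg
Mxd4: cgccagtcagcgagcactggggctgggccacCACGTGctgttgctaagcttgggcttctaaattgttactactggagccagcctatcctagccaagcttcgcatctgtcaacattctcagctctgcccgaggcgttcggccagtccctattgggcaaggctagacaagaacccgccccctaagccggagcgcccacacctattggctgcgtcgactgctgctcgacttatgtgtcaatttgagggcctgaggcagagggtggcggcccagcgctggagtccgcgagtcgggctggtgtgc
The E-box began at position -3 relative to the start of Max, at -40 for Mlx and at -219 for Mxd4. For Mnt it began at -123 (window chr11:74830674-74830973, plus strand), and it is shown with 10 bases on each side.
Mnt: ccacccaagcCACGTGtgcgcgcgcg
A match is a run of letters in the window, and binding was not measured in these libraries.

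The libraries held 31419443 to 36346220 counts on genes at 0 h and 31684152 to 33093006 at 48 h. A floor of 3 counts corresponds to 0.0825 to 0.0955 counts per 1000000 gene counts (CPM). The 12 hepatocyte markers, among them Alb and Apob, were all well detected and took 10.3 to 12.3% of gene counts at 0 h and 8.09 to 9.06% at 48 h, with 1 higher (Fgb) and 4 lower in the test described next. Genes of other liver cells were present at low level. The 10 sinusoidal endothelial markers summed to 335 to 479.9 CPM at 0 h and 254 to 304 CPM at 48 h (sums per library, before TMM), with 10 of 10 lower. The largest of them was Dpp4, with a mean of 141 CPM at 0 h and 89.6 CPM at 48 h after TMM. The 10 Kupffer cell markers summed to 73.2 to 110.2 CPM and 114 to 150.4 CPM, with 2 higher (Cd5l and Marco). The 10 stellate cell and fibroblast markers summed to 110.03 to 174 CPM at 0 h and 81.4 to 109.9 CPM at 48 h, with 1 higher (Col1a1) and 3 lower. Neutrophil markers summed to at most 1.16 CPM, with Ltf, Mpo and Retnlg at 0 in all libraries, and the 7 cholangiocyte markers to 8.75 to 19.3 CPM at 0 h and 17.9 to 28.8 CPM at 48 h. Of these, 2 could be tested, Spp1, which rose (log2 fold change 1.51), and Sox9, at 228 to 662 counts, which did not pass, while Krt7, Epcam, Cftr and Tspan8 had 3 counts or fewer in every library. The sum of 6 erythroid markers, nearly all of it Alas2, which fell, was 53.1 to 81.0 CPM at 0 h and 19.1 to 44.7 CPM at 48 h. The part of these cells in the differences of the network was not tested. In bulk samples, fewer cells of a type and less RNA per cell cannot be told apart.

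Between 0 h and 48 h, genes were called in both directions, in the network as among all genes tested. Levels are given from here on as CPM normalized by the trimmed mean of M values (TMM), and changes were tested with edgeR's quasi-likelihood test over 17037 genes, with p-values adjusted by the Benjamini-Hochberg method over all of them. At an adjusted p under 0.05, 3 of the 10 genes rose (Mxd3, Mlx and Max), 3 fell (Mxd4, Mxd1 and Mycl) and 4 did not pass (Myc, Mycn, Mxi1 and Mnt). Across all genes tested, 21.4% were called higher and 19.3% lower, so 40.7% were called in either direction. For the same 6 network genes every 48 h library was above (3 genes) or below (3 genes) every 0 h library, which held for 27.8% and 25.0% of all genes tested, 52.7% in either direction. Whether the counts in the network differ from these shares was not tested. The calls of Mxd3 and Mxd4 held under all 14 alternatives, whereas those of Mlx, Max, Mxd1 and Mycl were each lost in some of them. The median log2 fold change was 0.14 over the 10 genes and -0.00325 over all genes tested. The largest changes in the network, in opposite directions, were in genes of the same class, the Mxd repressors.

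**Figure D1:**
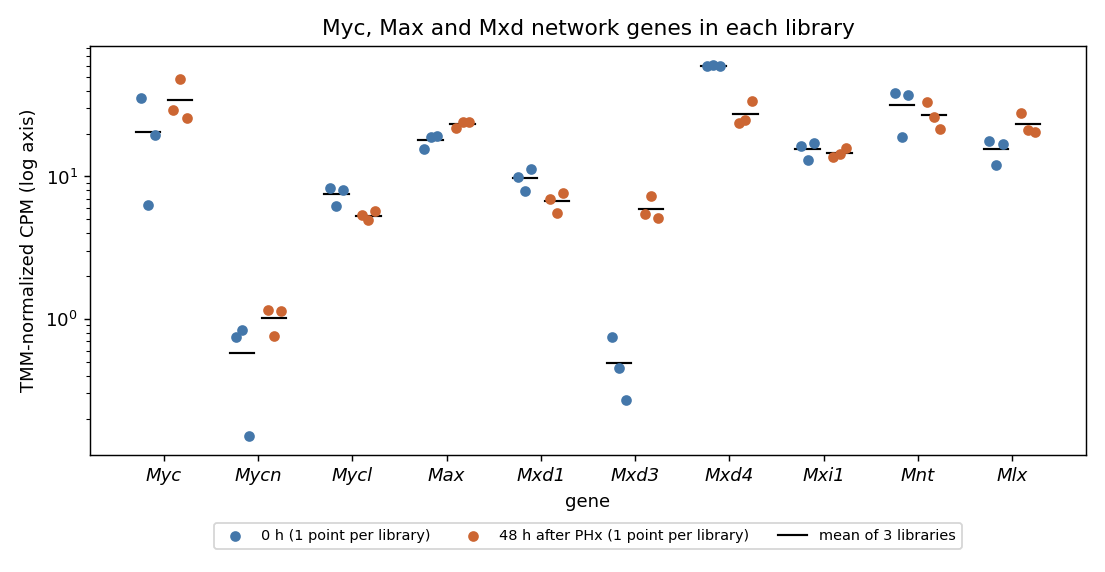
TMM-normalized CPM (log axis) of the 10 network genes in each library, with 1 point per library, blue for 0 h and orange for 48 h after PHx, and black lines for the mean of 3 libraries. Mxd3 at 48 h lies between 5.14 and 7.30 CPM, above all its 0 h points, Mxd4 at 48 h lies below its tightly grouped 0 h points, and the Myc points at 0 h are spread from 6.35 to 35.6 CPM.

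Myc (ENSMUSG00000022346.15; chromosome 15, 61985391 to 61990374, GRCm38, plus strand) stood at 35.6, 6.35 and 19.5 CPM in replicates 1, 2 and 3 at 0 h. At 48 h it stood at 29.1, 48.5 and 25.7 CPM. The 2 time points overlapped, because replicate 1 at 0 h was above 2 of the 3 libraries at 48 h, while replicate 2 at 0 h was far below every other library. The log2 fold change of Myc was 0.75 (standard error 0.462), which did not pass the threshold (adjusted p = 0.223 in edgeR's test). Without replicate 1 of 0 h the log2 fold change was 1.40 and passed (adjusted p = 0.0315 in edgeR's test). With a laxer filter, 1 count in any library, it hardly moved (0.74) but passed (adjusted p = 0.01 in edgeR's test). With this filter the adjusted p also fell for Mxd3 and Mxd4, to 2.2e-17 and 1.3e-10, while it rose for Max and Mxi1. The log2 fold change of Myc was 0.31 without replicate 2 of 0 h and 0.43 without replicate 2 of 48 h. The direction was upward under all 14 alternatives, and the size of the difference rests on which of these libraries is included. Markers of T and B cells, in which Myc can be high, summed to at most 0.521 CPM in any library, with Cd3d at 0 counts in all 6.

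Mycn and Mycl are paralogs of Myc, the former known from embryonic and neuronal progenitors and the latter from a narrower range of cells that includes dendritic cells. Mycn (ENSMUSG00000037169.15; chromosome 12, 12936093 to 12941914, minus strand) was the least expressed gene of the network per length, with 22, 26 and 5 counts at 0 h and 39, 27 and 40 counts at 48 h. These are 0.749, 0.838 and 0.151 CPM against 1.16, 0.755 and 1.14 CPM, which overlap, and the log2 fold change of 0.82 (standard error 0.474) did not pass (adjusted p = 0.193 in edgeR's test). It was 0.35 without replicate 3 of 0 h, the library with 5 counts, and 1.197 without replicate 2 of 0 h, and passed in neither case. Mycl (ENSMUSG00000028654.13; chromosome 4, 122995652 to 123002485, plus strand) went the other way. It was at 8.34, 6.19 and 8.07 CPM at 0 h and at 5.34, 4.92 and 5.68 CPM at 48 h. Every 48 h library was below every 0 h library, and Mycl fell by 0.50 on the log2 scale (standard error 0.164, adjusted p = 0.032 in edgeR's test). The call did not survive normalization by library size only (log2 fold change -0.30, adjusted p = 0.172) nor leaving out replicate 1 or 3 of 0 h or replicate 1 or 2 of 48 h (adjusted p = 0.101, 0.0982, 0.0667 and 0.108 in edgeR's test). The 6 dendritic cell markers summed to 6.40 to 8.75 CPM at 0 h and 6.04 to 8.13 CPM at 48 h (before TMM), 2 of them could be tested and neither passed, Cd209a was at 0 in all libraries, and nearly all of the sum was Zbtb46.

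Max (ENSMUSG00000059436.13; chromosome 12, 76937269 to 76962201, minus strand), the partner that Myc and the Mxd proteins compete for, was at 15.6, 19.04 and 19.3 CPM at 0 h. At 48 h it was at 21.8, 24.2 and 23.99 CPM, above every 0 h library. The rise was small, 1.30-fold (log2 fold change 0.37, standard error 0.119, adjusted p = 0.029 in edgeR's test). With library size only the log2 fold change was 0.58 (adjusted p = 0.00407 in edgeR's test). The rise did not pass when TMM was computed over protein-coding genes (0.32, adjusted p = 0.054) or with the laxer filter (0.36, 0.0507). Nor did it pass without replicate 1 of 0 h (0.27, 0.111), replicate 2 of 48 h (0.35, 0.1) or replicate 3 of 48 h (0.36, 0.0775).

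Mxd3 (ENSMUSG00000021485.14; chromosome 13, 55325168 to 55329823, minus strand) showed the largest change of the network. It was barely detected at 0 h, with 22, 14 and 9 counts, and had 183, 261 and 180 counts at 48 h. In CPM this was 0.749, 0.451 and 0.271 at 0 h and 5.43, 7.30 and 5.14 at 48 h, so that the lowest 48 h library was far above the highest 0 h library. The rise was 12.2-fold (log2 fold change 3.61, standard error 0.318, adjusted p = 1.33e-05 in edgeR's test), and the log2 fold change lay between 3.30 and 4.03 over 14 alternatives. Prelid1, on the opposite strand, shares 4.43% of the exon bases of Mxd3, and it rose by a log2 fold change of 0.68. It had 1877 to 2978 counts at 0 h and 3953 to 4899 at 48 h, far more than Mxd3. Its part in the counts of Mxd3 was not tested. Whether reads were assigned by strand is not stated.

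Mxd4 (ENSMUSG00000037235.13; chromosome 5, 34173883 to 34187720, minus strand) moved the opposite way and from a much higher level. It was at 59.6, 61.1 and 59.6 CPM at 0 h, the tightest group of the 10 genes. At 48 h it was at 23.7, 24.9 and 33.7 CPM, with no overlap. Mxd4 was 2.19-fold lower (log2 fold change -1.13, standard error 0.136, adjusted p = 0.000108 in edgeR's test), and stayed past the threshold in all 14 alternatives, with log2 fold changes from -1.30 to -0.92. Its promoter is the one shown above with the E-box farthest upstream.

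Mxd1 (ENSMUSG00000001156.9; chromosome 6, 86647042 to 86669161, minus strand), the founding member of the class, fell with Mxd4 but by less. It was at 9.91, 7.96 and 11.2 CPM at 0 h and at 6.92, 5.51 and 7.68 CPM at 48 h. The groups did not overlap but came close. Mxd1 fell by 0.53 on the log2 scale (standard error 0.178), with an adjusted p = 0.0346 in edgeR's test. The call was lost with library size only (log2 fold change -0.33, adjusted p = 0.155). It was also lost without replicate 1 or 3 of 0 h or replicate 1 or 2 of 48 h (0.0795, 0.128, 0.061 and 0.132 in edgeR's test). The log2 fold changes were then -0.53, -0.42, -0.56 and -0.41.

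Mxi1 (ENSMUSG00000025025.14; chromosome 19, 53310518 to 53375810, plus strand), also named Mxd2, was at 16.2, 13.1 and 17.3 CPM at 0 h and at 13.8, 14.3 and 15.8 CPM at 48 h. The groups overlapped fully (log2 fold change -0.085, standard error 0.135, adjusted p = 0.648 in edgeR's test), and the sign turned to 0.12 with library size only. Leaving out 1 library gave values from -0.20 (without replicate 2 of 0 h) to -0.0094 (without replicate 3 of 0 h), none of which passed. Mnt (ENSMUSG00000000282.12; chromosome 11, 74830920 to 74845725, plus strand) is the broadly expressed repressor partner of Max that is present in resting and dividing cells alike. It was at 38.8, 19.04 and 37.4 CPM at 0 h and at 33.3, 26.1 and 21.4 CPM at 48 h. Replicate 2 of 0 h was the lowest library for Mnt, as it was for Myc, Mxi1 and Mlx. It was also the lowest 0 h library for Mycl and Mxd1, but not for Mycn, Max, Mxd3 or Mxd4. Its share of reads on no gene, 32.7%, was the highest of all libraries. The log2 fold change of Mnt, -0.24 (standard error 0.247), did not pass (adjusted p = 0.474 in edgeR's test). Without replicate 2 of 0 h the value of Mnt was -0.51 (adjusted p = 0.0369 in edgeR's test). It was -0.079 without replicate 1 of 0 h and -0.11 without replicate 3 of 0 h. Without replicate 1 of 48 h it was -0.42 and without replicate 3 of 48 h -0.089. With library size only it was -0.041 (adjusted p = 0.904 in edgeR's test). Of these settings, only the removal of replicate 2 of 0 h passed.

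**Figure D2:**
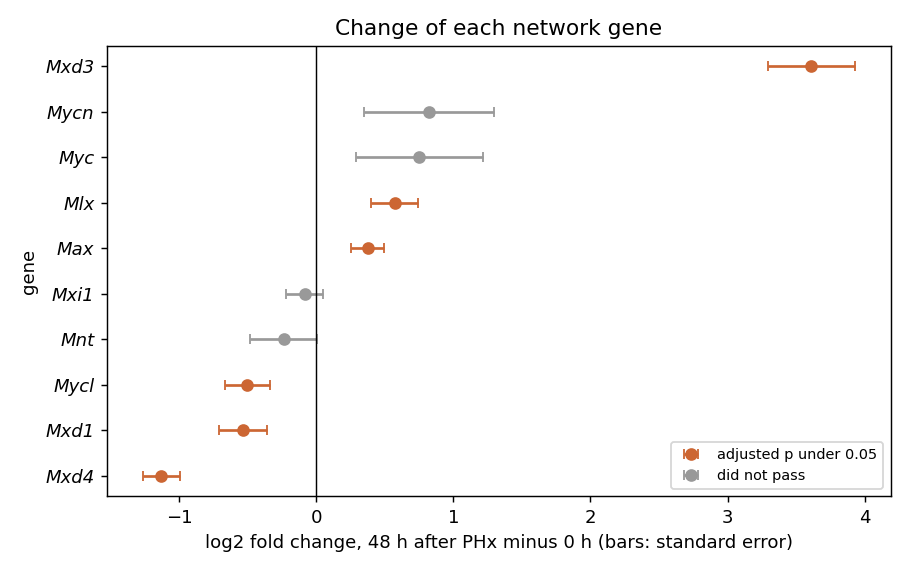
Log2 fold change (48 h after PHx minus 0 h) of each network gene, with bars for the standard error, orange where the adjusted p was under 0.05 and grey where it was not. Mxd3 stands apart at 3.61 and Mxd4 is lowest at -1.13, and the widest bars belong to Mycn and Myc.

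Mlx (ENSMUSG00000017801.15; chromosome 11, 101087277 to 101092207, plus strand) was at 17.8, 12.02 and 17.02 CPM at 0 h. It was at 27.9, 21.3 and 20.6 CPM at 48 h, above every 0 h library. The rise was 1.49-fold (log2 fold change 0.57, standard error 0.171, adjusted p = 0.0218 in edgeR's test). It missed the threshold without replicate 2 of 0 h (adjusted p = 0.0539) or replicate 1 of 48 h (0.082). Psmc3ip, a recombination gene on the opposite strand, shares 19.3% of the exon bases of Mlx and rose by a log2 fold change of 2.17, with 6 to 11 counts at 0 h and 35 to 52 at 48 h, where Mlx had 373 to 565 and 723 to 938 counts. Its part in the counts of Mlx was not tested.

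The DNA-binding partner of Mlx in liver, ChREBP, went the other way. Mlxipl was at 979, 1048 and 962 CPM at 0 h and at 244, 409.9 and 383 CPM at 48 h, with no overlap (log2 fold change -1.53, standard error 0.192, adjusted p = 0.000145 in edgeR's test). Its promoter holds an E-box that begins at -98, in the window chr5:135089640-135089939 on the plus strand.
Mlxipl: ggctgccatcCACGTGctaaggagag
The gene of the other glucose-sensing partner, Mlxip, was at 17.02 CPM ± 0.296 (SD, n = 3) and 14.2 CPM ± 0.369 (SD, n = 3) and did not pass (log2 fold change -0.26, adjusted p = 0.0727 in edgeR's test). Of 19 genes known as targets of ChREBP or MondoA with Mlx, 17 were tested, none was higher and 11 were lower (64.7%, beside 19.3% of all genes tested), with a median log2 fold change of -0.93. The largest decreases were in G6pc, which encodes glucose-6-phosphatase, at 1318, 1188 and 1304 CPM against 178, 157 and 96.9 CPM (log2 fold change -3.14), and in Thrsp, a lipogenic regulator, at 209.99, 101.4 and 226 CPM against 55.6, 41.1 and 30.9 CPM (log2 fold change -2.07). Pklr, Txnip and Acacb, which encode liver pyruvate kinase, a glucose-induced arrestin and an acetyl-CoA carboxylase, had log2 fold changes of -1.93, -1.98 and -1.88 and were picked out after their values were seen.

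Compared per length, as RPKM (the TMM-normalized CPM divided by the kilobases of merged exons), the levels of the 10 genes could be set in order. At 0 h the upper group was Mlx (7.82 ± 1.57, SD, n = 3), Myc (7.54 ± 5.40), Mxd4 (7.08 ± 0.0996), Mnt (6.86 ± 2.38) and Max (4.998 ± 0.568), in which each neighbouring pair overlapped. Mxi1 (2.28 ± 0.321), Mycl (1.87 ± 0.29) and Mxd1 (1.37 ± 0.233) followed, and Mxd3 (0.207 ± 0.102) and Mycn (0.176 ± 0.113) were lowest. The gaps between Max and Mxi1 and between Mxd1 and Mxd3 were the only ones without overlap between neighbours at 0 h. At 48 h Myc (12.7 ± 4.53) and Mlx (11.6 ± 1.995) were highest and overlapped, Max (6.48 ± 0.372) and Mnt (5.82 ± 1.30) overlapped below them, and Mxd4 (3.23 ± 0.642), Mxd3 (2.51 ± 0.494) and Mxi1 (2.15 ± 0.153) overlapped from neighbour to neighbour. Mycl (1.32 ± 0.0944), Mxd1 (0.948 ± 0.156) and Mycn (0.309 ± 0.0693) came last, each apart from its neighbours. With the longest transcript as the length, Mxd4 was the highest gene at 0 h (12.99) and Max followed it (9.26), and at 48 h Max (12.001) stood between Myc (14.7) and Mlx (11.8), with every library above those of Mnt. Also at 48 h with this length, Mxd4 (5.93) stood just above Mnt (5.86) and overlapped it, Mxd4 no longer overlapped Mxd3, and Mycl and Mxd1 overlapped. The order, and which neighbours overlap, therefore depend on the length used.

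The make-up of the network differed within its repressors. Of the summed RPKM of the 10 genes, Mxd4 made up 14.6, 24.01 and 16.6% at 0 h and 5.86, 5.73 and 9.37% at 48 h. Mxd3 made up 0.656, 0.635 and 0.27% at 0 h and 4.81, 6.02 and 5.12% at 48 h. The ratio of Mxd3 to Mxd4 was 0.045, 0.0265 and 0.0163 at 0 h and 0.821, 1.05 and 0.547 at 48 h, with every 48 h library above every 0 h library. Myc made up 27.2, 7.79 and 16.9% at 0 h and 22.5, 34.9 and 22.3% at 48 h, which overlap. These shares are descriptions of 3 libraries a time point, without a test.

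Whether the repressors overlapped between the time points when summed over the class depended on the gene length used. Per kilobase of merged exons, the 4 Mxd genes with Mnt summed to 19.5, 14.5 and 19.3 RPKM at 0 h and to 15.3, 14.5 and 14.2 RPKM at 48 h, which overlap. Per kilobase of the longest transcript, a setting chosen for this sum after seeing the data, they summed to 27.1, 21.9 and 27.03 at 0 h and to 19.7, 19.3 and 19.7 at 48 h, with every 48 h library below every 0 h library. Relative to Max, their sum was 4.49, 2.75 and 3.61 at 0 h and 2.53, 2.16 and 2.12 at 48 h, without overlap, and with the longest transcript there was none either. The 3 Myc genes, summed, stood to the Mxd genes and Mnt in a ratio of 0.790, 0.283 and 0.476 at 0 h and of 0.810, 1.33 and 0.792 at 48 h. These groups were separated only by the difference between 0.790 and 0.792, so the ratio in replicate 1 of 0 h was level with that in 2 libraries at 48 h.

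Genes known as Myc targets were mostly higher at 48 h. Of 26 nucleolar and ribosome assembly genes, 19 rose (73.1%, beside 21.4% of all genes tested), none fell and 7 did not pass, with a median log2 fold change of 0.48. The largest rises were in Nop58, at 8.99, 10.9 and 9.28 CPM against 29.96, 28.4 and 26.3 CPM (log2 fold change 1.53), and in Nop56, at 11.2, 16.3 and 13.1 CPM against 30.8, 30.1 and 28.1 CPM (log2 fold change 1.13), both core proteins of the particles that methylate ribosomal RNA. Of 28 genes of metabolism and translation, 17 rose (60.7%), 2 fell (7.14%, beside 19.3% of all genes tested) and 9 did not pass, with a median of 0.56. Ctps, a CTP synthase, went from 2.02 CPM ± 0.617 (SD, n = 3) to 11.6 CPM ± 1.15 (SD, n = 3), and Ldha, lactate dehydrogenase A, from 233 CPM ± 5.31 (SD, n = 3) to 673 CPM ± 87.7 (SD, n = 3), with log2 fold changes of 2.52 and 1.53. The decreases were in Tert, the telomerase subunit (log2 fold change -0.58, adjusted p = 0.00229 in edgeR's test), and in Shmt1, a serine hydroxymethyltransferase (log2 fold change -0.44, adjusted p = 0.0393), whose groups overlapped. Only 1 gene of the list was lower without replicate 1 or 3 of 0 h, without replicate 1 or 3 of 48 h, with the replicate number as a block or with library size only. The promoter of Ldha (chr7:46845554-46845853, plus strand) carries the E-box at 2 places, which begin at -145 and -48.
Ldha, distal: tgtcgcagcaCACGTGgagccactct
Ldha, proximal: gcccagcctaCACGTGggttcccgca
Of the windows found, 4 of 20 in the nucleolar list and 6 of 24 in the metabolic list held the motif.

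The cell cycle targets had the highest median of the 9 lists. Of 12 genes, 9 rose (75%, beside 21.4% of all genes tested), 1 fell (8.33%) and 2 did not pass, with a median log2 fold change of 2.74. Mcm5, a subunit of the replicative helicase, went from 1.91, 1.61 and 2.41 CPM to 83.4, 85.9 and 81.8 CPM, and Ccne1 (cyclin E1) from 0.443, 0.838 and 0.452 CPM to 24.3, 23.3 and 24.05 CPM, with log2 fold changes of 5.40 and 5.36. The gene that fell was Id2, an inhibitor of differentiation factors (log2 fold change -0.67).

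Genes known to be repressed by Myc went both ways. Of 10 listed, 9 were tested, 3 were higher and 3 lower (33.3% each, beside 21.4% and 19.3% of all genes tested). Cdkn1a, the cyclin-dependent kinase inhibitor p21, was higher, at 8.20, 6.22 and 8.13 CPM against 71.2, 95.3 and 77.1 CPM (log2 fold change 3.43), and so was Gadd45a, a DNA damage response gene (log2 fold change 1.55). The other gene that was higher was Cdkn1b, the inhibitor p27 (log2 fold change 0.68). Ndrg1 and Gas1, genes of differentiation and growth arrest, and Ndrg2 were lower, with log2 fold changes of -1.80, -0.96 and -0.62. The median was -0.074 and changed sign under other settings, the removal of a single library among them: it was 0.10 without replicate 2 of 0 h and 0.32 without replicate 3 of 48 h.

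**Figure D3:**
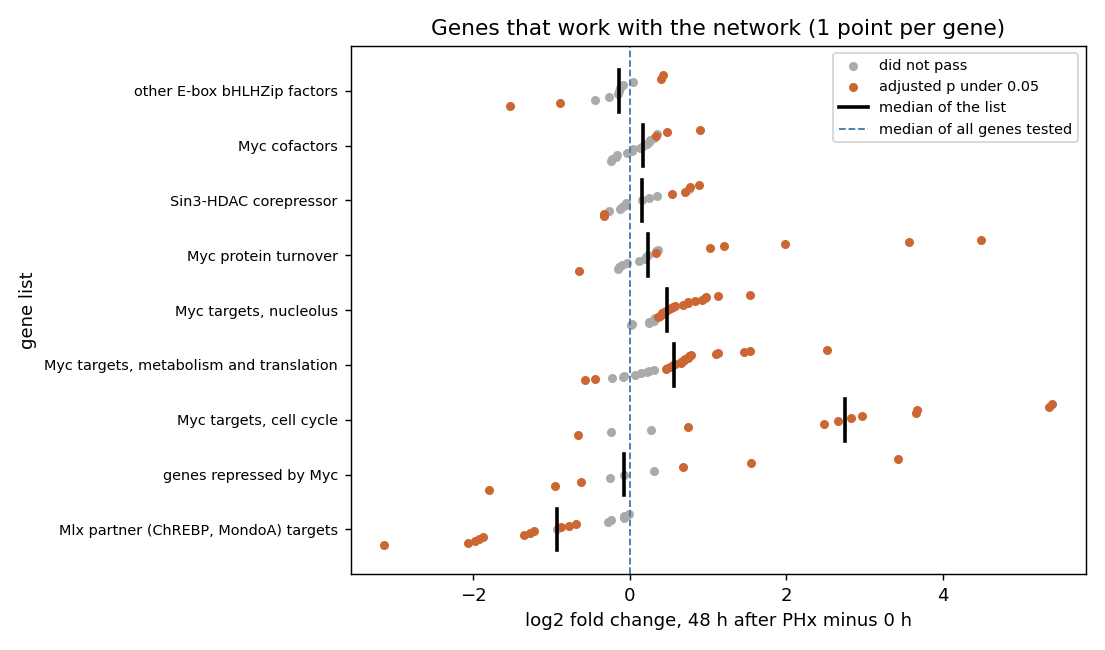
Log2 fold change (48 h after PHx minus 0 h) of each tested gene in 9 lists of genes that work with the network, orange where the adjusted p was under 0.05 and grey where it was not, with a black bar for the median of a list and a dashed line for the median of all genes tested. The medians of the 3 target lists lie at 0.48, 0.56 and 2.74, and that of the ChREBP and MondoA targets at -0.93.

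Proteins that Myc and the Mxd proteins recruit formed a pair of lists. Of 17 Myc cofactors, 3 rose (17.6%, beside 21.4% of all genes tested), none fell and 14 did not pass, with a median log2 fold change of 0.16. Ruvbl2, an ATPase of the TIP60 and INO80 complexes, was at 7.11, 5.64 and 7.11 CPM against 13.6, 12.0 and 11.4 CPM (log2 fold change 0.90), and Actl6a, an actin-like subunit of the same and of SWI/SNF complexes, had a log2 fold change of 0.47. Hcfc1, a host cell factor that binds Myc, had 0.33. With library size only, 10 of the 17 were called higher. Of 16 genes of the Sin3 and histone deacetylase corepressor, 15 were tested, 4 rose (26.7%) and 2 fell (13.3%), shares near those of all genes tested (21.4% and 19.3%). Rbbp7, a histone chaperone that is also part of other complexes, was at 28.5, 24.9 and 32.1 CPM against 51.2, 52.9 and 53.2 CPM (log2 fold change 0.88), and Ing1, a reader of histone methylation, had a log2 fold change of 0.77. The other two that rose were the deacetylases Hdac1 and Hdac2, with log2 fold changes of 0.54 and 0.70. Arid4a and Sin3b, a scaffold of the corepressor, fell by 0.33 each on the log2 scale. Neither was called when replicate 1, 2 or 3 of 48 h was left out or with the replicate number as a block, and 1 gene of the list was lower without replicate 1 of 0 h or with the laxer filter. With library size only, 8 of these genes were higher and none lower.

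Among 17 genes that set the stability of the Myc protein, 6 rose (35.3%), 1 fell (5.88%) and 10 did not pass, beside 21.4% higher and 19.3% lower among all genes tested. Cip2a, an inhibitor of the phosphatase PP2A that keeps Myc phosphorylated, was at 0.477, 1.32 and 1.11 CPM at 0 h and at 23.4, 24.8 and 18.0 CPM at 48 h (log2 fold change 4.49, standard error 0.276, adjusted p = 9.03e-07 in edgeR's test). Aurka, the mitotic kinase that shields N-Myc from degradation, had a log2 fold change of 3.57. Skp2, Fbxl14, Usp37 and Gsk3a, which encode ubiquitin ligase subunits, a deubiquitinase and a kinase, also rose, by log2 fold changes of 1.98, 1.02, 1.21 and 0.33. Gsk3a was the closest to the threshold (adjusted p = 0.048 in edgeR's test), and its groups overlapped. The gene that fell was Ppp2r5a, a PP2A regulatory subunit that directs the phosphatase to Myc, at 169.7, 144 and 159 CPM against 100.03, 97.8 and 104 CPM (log2 fold change -0.64). The ubiquitin ligase subunit Fbxw7 was at 16.1 CPM ± 0.689 (SD, n = 3) and 15.7 CPM ± 1.21 (SD, n = 3) and did not pass (adjusted p = 0.828 in edgeR's test). With library size only, 12 of the 17 were called higher, and 5 were in DESeq2 and in limma's voom.

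The other factors that bind E-boxes through the same fold gave 2 genes higher (18.2%), 2 lower (18.2%) and 7 that did not pass among 11, shares near those of all genes tested (21.4% and 19.3%). Beside Mlxipl, Srebf1, which encodes the lipogenic factor SREBP-1, was lower, at 535, 432 and 578 CPM against 311, 264 and 257 CPM (log2 fold change -0.89). Tfe3, a regulator of lysosomal genes, and Mga, which pairs with Max, were higher by log2 fold changes of 0.43 and 0.40. Only 1 gene of the list was higher without replicate 1 or 3 of 0 h, without replicate 2 or 3 of 48 h, with the replicate number as a block or when TMM was computed over protein-coding genes, and 4 were lower with this last setting and with a filter of 1 CPM in 3 libraries. Usf1, the ubiquitous upstream stimulatory factor, was at 10.4 CPM ± 0.155 (SD, n = 3) and 10.6 CPM ± 0.152 (SD, n = 3), and its log2 fold change of 0.037 did not pass.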

How the data were processed

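Hepatocyte RNA was sequenced in 6 libraries, 3 at 0 h and 3 at 48 h after PHx. The authors deposited raw read counts per gene, without normalization, in the layout of htseq-count. Their processing notes name FastQC 0.11.5, Trim Galore 0.6.4, STAR 2.6, HTSeq 0.12.4 and DESeq2, and the build mm10. The strand setting and counting mode are not given in the sources used here. All gene identifiers matched GENCODE M21 (GRCm38), from which names, coordinates and exon lengths were taken. Reads on no gene (24.3 to 32.7%) and ambiguous reads (4.27 to 5.29%) were left out.

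Genes that reached 10 counts in 3 or more libraries were tested in edgeR 4.0.16 (R 4.3.3) with TMM normalization, glmQLFit and glmQLFTest, time point as the only term, and Benjamini-Hochberg adjustment. The procedure was tested on simulated data first. The standard error is the log2 fold change divided by the square root of F. Alternatives were DESeq2 1.42.0, voom in limma 3.58.1, 3 other scalings, 2 other filters, the replicate number as a block, another gene length and leaving out each library. The floor of 3 counts concerns counting error only, and reads carry no molecular identifiers. Standard errors come from the fit over the libraries, and SDs from the 3 libraries of a time point, so both include differences between preparations. The network genes and lists were chosen with earlier results of these data known, and the lists come from general knowledge. Named list genes are the 2 largest increases and 2 largest decreases with an adjusted p under 0.05 and at least 1 CPM on average. Genes named otherwise were chosen after their values were seen. P-values were computed over separate preparations.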

Additional observations from a re-analysis of the deposited data

How the results depend on the processing

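Mxd3 and Mxd4 kept their direction and call under all 14 alternatives. With library size only, 2110 genes were lower and 5308 higher (3288 and 3638 with TMM), the median log2 fold change moved by 0.20, higher genes made up 71.6% of the calls instead of 52.5%, and 1 network gene, Mxd4, was lower instead of 3. Mxi1 then turned to 0.12. Leaving out 1 library gave 1 to 4 lower and 2 to 3 higher network genes. The median of the genes repressed by Myc (-0.074) turned to 0.049 in DESeq2, 0.11 with library size only, 0.037 with a filter of 1 count, 0.013 with a filter of 1 CPM in 3 libraries, 0.10 without replicate 2 of 0 h and 0.32 without replicate 3 of 48 h (range -0.29 to 0.32 when 1 library was left out), and that of the other E-box factors (-0.14) to 0.059 with library size only. The cause was not tested. With TMM from protein-coding genes, 47.4% of the calls were higher. A replicate block gave 3237 higher and 2884 lower genes, with 3 network genes in each direction as before (Mxd3 log2 fold change 3.63, Mxd4 -1.15). Deviations of same-numbered libraries had correlations of 0.0382, -0.108 and -0.178. With 3 libraries a time point, these values cannot tell whether the numbers mark pairs. Depth limits Mycn and, at 0 h, Mxd3, which had as few as 5 and 9 counts.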

Other observations

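Myc varied more between the 0 h libraries than nearly any gene of its level. Its coefficient of variation at 0 h was 71.6% over 3 libraries, and its highest library was 5.61 times its lowest. Of the 6373 tested genes with a mean of 5 to 50 CPM at 0 h, the median coefficient of variation was 11.1%, and 0.0941% had one at least as large as that of Myc. Mnt had 34.7%, a value that 2.13% of those genes reached, and Mycn and Mxd3, which lie below this range of levels, had 64.5% and 49.2%. At 48 h the coefficient of variation of Myc was 35.7%, beside a median of 8.79% over 6565 genes, of which 2.45% reached that of Myc. Max had 11.4% at 0 h and 5.74% at 48 h, and Mxd4 1.41% and 19.9%. The labels name nothing that separates the 0 h libraries, and what differed between them was not tested.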
